A study of Rattus norvegicus with 13 samples.

Results

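The genes described here are those that encode subunits and assembly factors of mitochondrial complex I. They were chosen by name: every non-control spot of the array whose gene name begins with Nduf was taken, names beginning with Ndufaf were called assembly factors and the others subunits. The rule found 47 gene names, 40 for subunits and 7 for assembly factors, among the 26115 gene names of the array. They are read by 61 probes on 178 spots, out of 30367 probes on 58717 spots. The label describes the members only in part, since Ndufa4 is now counted as a subunit of complex IV, and Ndufa10l1, Ndufa7l and Ndufb4l1 are named as relatives of subunit genes. No array name among the members was Ndufb1, Ndufa4l2 or Ndufaf8.

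Total RNA came from male rats, 45 weeks old, and from their left ventricle. The ADBR3 group overexpressed the β3-adrenergic receptor, a catecholamine receptor, and comprised 5 rats on 7 arrays, while the WT group comprised 4 rats on 6 arrays. The labels name the genotype as ADBR3 overexpressing or WT, and the strain, the construct and the promoter behind the overexpression are not given in the sources used here. In each group, hearts 1 and 2 are repeat labelings of 1 rat and were averaged, while ADBR3 heart 4 and WT heart 5 are replicate hybridizations whose partner array the labels do not name, and they were left out of the comparison. Rats are called by group and heart number: ADBR3 1, 3, 5, 6 and 7, and WT 1, 3, 4 and 6.

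Complex I oxidises NADH and passes the electrons to ubiquinone while it pumps protons across the inner mitochondrial membrane. It is L-shaped: an N part at the tip of the matrix arm binds NADH, a Q part joins the arms and reduces quinone, and a P part in the membrane pumps protons. Beating heart muscle is packed with mitochondria and draws most of its ATP from this chain. Some core subunits are encoded in the mitochondrial genome and carry no Nduf name, and assembly factors join the modules without staying in the finished enzyme.

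A level is the log2 signal of a probe relative to the 75th percentile of its array (their difference), so that a level of 0 is the 75th percentile itself. Levels of different probes cannot be set against each other, and differences are ADBR3 minus WT on the log2 scale. The 75th percentile lay between 760 and 909 signal units, 55.2% to 67.8% of spots were well above background, and saturated spots were absent (0 on each array). All 10 cardiomyocyte markers listed were well above background, with a mean level of 7.75 to 7.87 in ADBR3 rats and 7.64 to 7.91 in WT rats. The atrial markers Nppa, Sln and Myl7 varied widely, with a mean level of 2.90 to 5.84 in ADBR3 rats and 2.93 to 4.41 in WT rats.

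Of the 61 probes, 60 were tested, and all 60 were well above background on every array. The probe for Ndufaf2, a factor of late assembly and a paralog of Ndufa12, was well above background on 0 of 7 ADBR3 arrays and on 1 of 6 WT arrays, and was not tested. In 11 genes more than 1 probe was tested, and these probes share their gene and are not replicates of a condition. For 20 of the gene names RefSeq lists pseudogenes, 49 in all, and signal from such copies cannot be told apart here. The probes of Ndufa8, Ndufs6, Ndufc1, Ndufa3 and Ndufa7, among others, had no match by accession in the RefSeq table of GRCr8. Their gene names rest on the array files alone.

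The probes on which the results turn are shown first. All sequences are printed 5′ to 3′ in the sense of the transcript as the array files give them, with no capitals because no part of a probe is singled out. The Ndufa8 probe had the largest difference relative to its error, the Ndufs6 and Ndufaf4 probes separated the groups, and the pair of Ndufv3 probes reads transcript variant 1 alone or both transcript variants. The Ndufaf6 probe varied most between rats. Positions are on rn4, the build named in the file headers: chr3:15149583-15149642 on the minus strand for Ndufa8, chr2:26295954-26296013 on the plus strand for Ndufs6, chr5:39943233-39943292 on the plus strand for Ndufaf4, chr20:9957258-9957317 and chr20:9960098-9960157 on the plus strand for Ndufv3, and chr5:24893589-24893648 on the minus strand for Ndufaf6.
Ndufa8 A_44_P423528: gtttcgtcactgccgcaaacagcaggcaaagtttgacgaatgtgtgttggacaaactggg
Ndufs6 A_64_P057292: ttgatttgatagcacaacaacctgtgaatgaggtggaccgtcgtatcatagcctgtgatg
Ndufaf4 A_44_P253940: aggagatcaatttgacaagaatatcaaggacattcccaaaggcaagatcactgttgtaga
Ndufv3 A_42_P535085: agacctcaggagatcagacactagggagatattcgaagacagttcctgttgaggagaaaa
Ndufv3 A_64_P103707: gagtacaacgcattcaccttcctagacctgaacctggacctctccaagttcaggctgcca
Ndufaf6 A_44_P532297: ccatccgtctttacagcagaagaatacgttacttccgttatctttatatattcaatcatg

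Complex I transcripts differed little between ADBR3 and WT left ventricle. No Nduf probe passed the test (0 of 60, limma with Benjamini-Hochberg adjustment over all 17587 probes at 0.05), where 1 probe of the whole array did (0.00569%). At an unadjusted p under 0.05, 0 Nduf probes were higher and 4 were lower in ADBR3 rats, 6.67% of 60, beside 9.2% of all probes in either direction, 3.12% higher and 6.08% lower. In the lower direction alone, the 6.67% of Nduf probes stands beside 6.08% of all probes. The groups did not overlap for 3 Nduf probes, all lower in ADBR3 rats (5% of 60), beside 3.44% of all probes, 1.23% higher and 2.21% lower.

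Intervals were narrow for most of these probes, as for the other complexes of the respiratory chain. The 95% interval of the difference lay within a 1.2-fold change in either direction for 51 of 60 Nduf probes (85%), against 37 of 40 probes of complexes II to V (92.5%) and 43.5% of all probes tested. Complexes II to V, like every other list, were read by 1 probe a gene, that with the highest mean level. The Nduf set holds all tested probes, dim ones included, so these sets are not alike. Differences were under 0.1 in size for 80% of Nduf probes, for 82.5% of those of complexes II to V and for 58.1% of all probes. The SD between rats within a group had a median of 0.0739 over Nduf probes, of 0.0723 over complexes II to V and of 0.135 over all probes. The Nduf probes were bright, with a median level of 5.44, beside 6.83 for complexes II to V and -1.07 for all probes. These levels describe the brightness of probes and do not rank amounts of transcript. Between the repeat labelings of 1 rat, the SD of the differences over the Nduf probes was 0.119 in ADBR3 and 0.0920 in WT, and its median over pairs of rats of a group was 0.140. The ADBR3 labelings lay on different slides and scan days, whereas the WT labelings shared a slide and a scan day.

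The median difference over the 60 probes was -0.0288, beside -0.00939 over all probes. Of the 60 probes 19 were higher and 41 lower in ADBR3 rats (68.3% lower, against 53.5% of all probes), but with each array centred on its median 40 were higher and 20 lower, with a median of 0.0313 beside 0.0507 for all probes. With 1 probe a gene, 17 of 46 genes were higher and 29 lower, with a median of -0.0203. In the N part 5 probes were higher and 9 lower, which median centring turned to 9 and 5. In the Q part 2 were higher and 4 lower, turned to 5 and 1, and in the P part 6 were higher and 17 lower, turned to 13 and 10. Among the other names 1 was higher and 6 lower, turned to 6 and 1, and among assembly factors 5 were higher and 5 lower, turned to 7 and 3. Median centring shifts the difference of all probes upward by the same amount, so the Nduf median had to stay below that of all probes. With quantile normalization it was -0.0196, beside 0.0161 for all probes. With normexp and the 75th percentile both medians were -0.0219. With quantile normalization the N part had 5 higher and 9 lower, the Q part 2 and 4, and the P part 6 and 17, as with the 75th percentile. With normexp and the 75th percentile they had 6 and 8, 3 and 3, and 7 and 16.

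**Figure D1:**
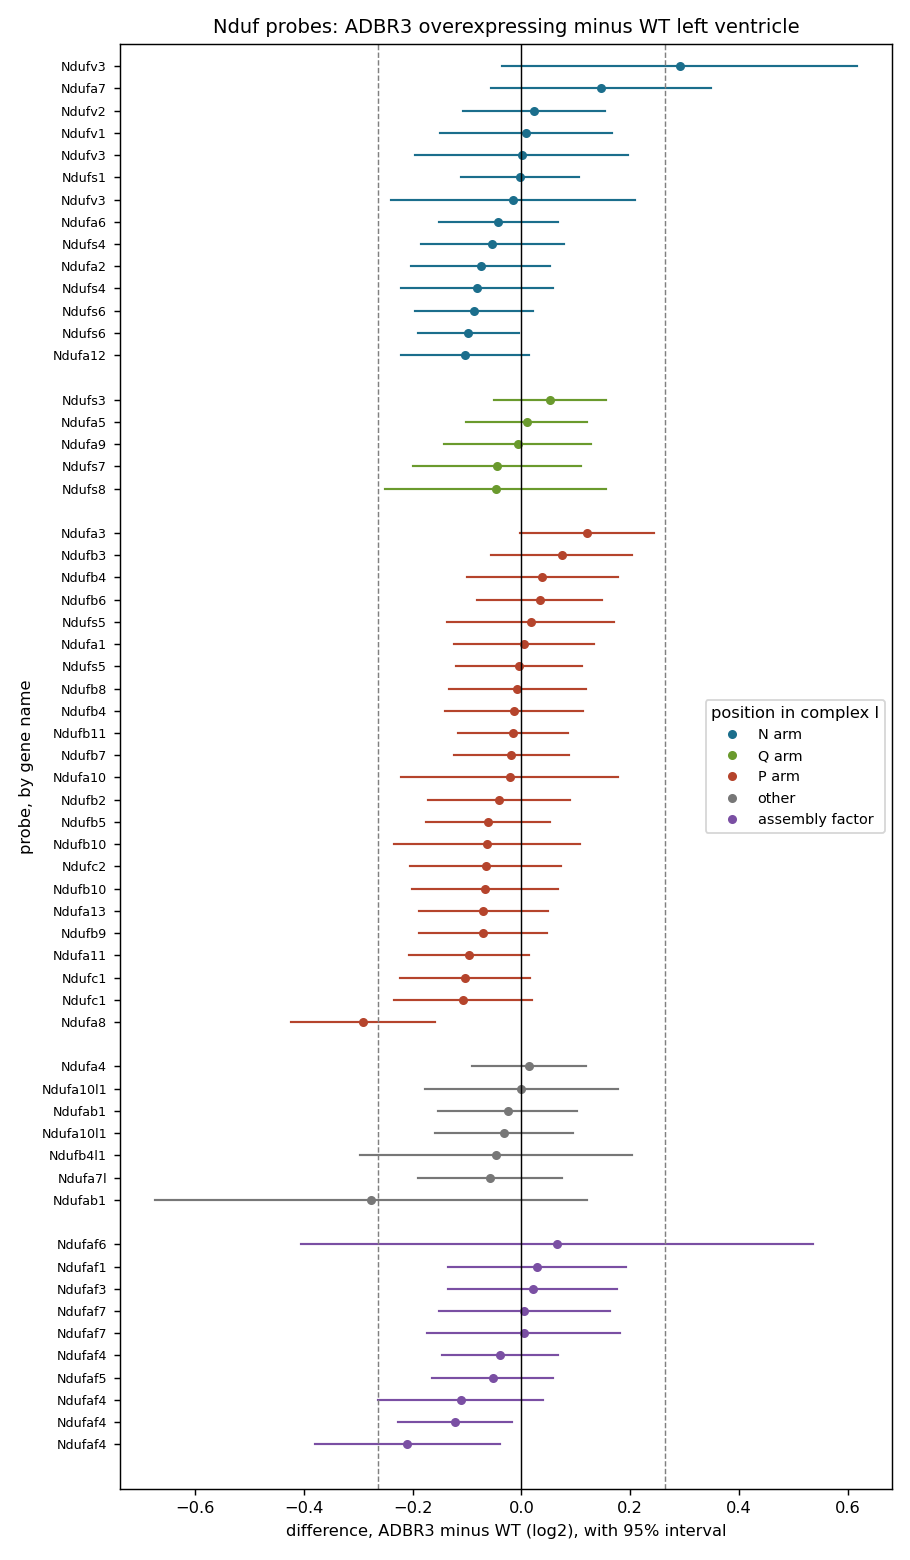
Difference of the Nduf probes reported here, ADBR3 minus WT in log2 units on the horizontal axis, with its 95% interval as a line, grouped by the part of complex I. Dashed lines mark a 1.2-fold change in either direction, and 51 intervals lie between them, while those of Ndufa8, of 2 Ndufaf4 probes and of 1 Ndufs6 probe lie wholly below 0.

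The core subunits of the N part carry the electrons from NADH toward the Q part. Ndufv1, which binds NADH and FMN, had a level of 7.14 ± 0.110 in ADBR3 rats (SD, n = 5) and 7.13 ± 0.0859 in WT rats (SD, n = 4). Ndufv2, an iron-sulphur protein beside it, had 6.72 ± 0.0872 in ADBR3 rats and 6.70 ± 0.0501 in WT rats. Ndufs1, which holds a chain of iron-sulphur clusters, had 5.32 ± 0.0521 in ADBR3 rats and 5.32 ± 0.0481 in WT rats. Their differences were 0.0084, 0.023 and -0.0035, each smaller than its standard error.

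In the Q part, Ndufs7 lines the quinone site, Ndufs8 carries iron-sulphur clusters and Ndufs3 joins them in the core. Ndufs7 had a level of 5.69 ± 0.0752 in ADBR3 rats and 5.74 ± 0.119 in WT rats (SD, n = 5 and 4). Ndufs8 had 3.59 ± 0.165 in ADBR3 rats and 3.64 ± 0.0950 in WT rats, and Ndufs3 had 5.47 ± 0.0523 in ADBR3 rats and 5.42 ± 0.0240 in WT rats. Ndufs7 differed by -0.045 and Ndufs8 by -0.048, while Ndufs3 differed by 0.052 in the other direction. The groups overlapped for each of them.

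Ndufa8, an accessory subunit on the intermembrane-space face of the membrane arm, stood furthest from 0 relative to its error. Its level was 3.20, 3.26, 3.23, 3.05 and 3.23 in ADBR3 rats, against 3.52, 3.51, 3.39 and 3.50 in WT rats. Every ADBR3 rat lay below every WT rat, ADBR3 6 was the lowest, and WT 4 lay apart from the other WT rats toward the ADBR3 group. The means were 3.19 ± 0.0839 in ADBR3 rats (SD, n = 5) and 3.48 ± 0.0643 in WT rats (SD, n = 4). The signal was thus 0.818-fold in ADBR3 rats, a difference of -0.29 ± 0.059 (SE), with a 95% interval from -0.42 to -0.16.

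This Ndufa8 difference did not pass the test across the array, with an adjusted p of 0.256 by limma with Benjamini-Hochberg adjustment. An exact permutation test (two-sided, all ways to divide the 9 rats) gave 0.00794, the smallest p it can give. That p restates that the groups were apart and was not adjusted over probes. Repeat labelings were close, at 3.19 and 3.20 for the ADBR3 rat and 3.53 and 3.52 for the WT rat. The replicate hybridizations, at 3.24 for ADBR3 heart 4 and 3.43 for WT heart 5, also fell on the side of their own group. On slides 1, 3 and 4, which held both groups, the difference was -0.32, -0.16 and -0.26, and within the 2 scan days it was -0.32 and -0.16. Here and in the other values within a slide or day, a replicate hybridization was counted with the rat of its closest array. Slide 1 held 1 ADBR3 rat and 2 WT rats, slide 3 held 1 of each group, and slide 4 held 3 and 1. WT 4 was the only WT rat on slides 3 and 4 and on scan day 2. On slide 4 it was read from WT heart 5, counted as WT 4. Under all 23 alternatives the difference stayed below 0, between -0.35 and -0.23, with a lowest adjusted p of 0.110.

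Ndufs6, a zinc-binding accessory subunit of the N part, was read by 2 probes that each lay lower on average in ADBR3 rats. Probe A_64_P057292 measured 6.19, 6.21, 6.20, 6.14 and 6.16 in ADBR3 rats, against 6.26, 6.27, 6.27 and 6.32 in WT rats. The groups did not overlap and lay close together, and WT 6 stood above the other WT rats. The difference was -0.098 ± 0.041 (SE), with an adjusted p of 0.530 by limma with Benjamini-Hochberg adjustment. The exact permutation p of 0.00794, the smallest that test can give, restates that the groups were apart and was not adjusted over probes. The replicate hybridization ADBR3 heart 4 measured 6.28, inside the WT range, and WT heart 5 measured 6.34. With median centring the difference of A_64_P057292 was -0.038, under normexp with the 75th percentile -0.063 and on the authors' deposited values -0.047. Probe A_44_P273863 differed by -0.087 with overlapping groups. The array files place both probes on chromosome 2 of rn4, whereas the RefSeq table of another build, GRCr8, places Ndufs6 on chromosome 1 and a pseudogene that once carried the same symbol, Ndufs6-ps1, on chromosome 2. Whether the probes read the gene or its copy is thus uncertain.

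Other accessory subunits with the smallest unadjusted p among the lower ones were Ndufa11, Ndufa12, Ndufc1, Ndufab1 and Ndufb9. Ndufa12, at the foot of the N part, differed by -0.10 ± 0.052 (SE), and Ndufa11, in the membrane arm, by -0.097 ± 0.049 (SE). The 2 probes of Ndufc1, a small membrane-arm subunit, gave -0.10 ± 0.053 and -0.11 ± 0.056 (SE). For probe A_64_P119093 of Ndufc1 the levels were 4.40, 4.42, 4.59, 4.45 and 4.54 in ADBR3 rats, against 4.62, 4.57, 4.52 and 4.64 in WT rats. ADBR3 1, 3 and 6 lay below all WT rats, and ADBR3 5 and 7 lay among them. Within slides, the Ndufc1 differences were -0.18 and -0.27 on slide 1, against 0.023 and 0.014 on slide 3 and 0.040 and 0.013 on slide 4. Slides 3 and 4 each held 1 WT rat. On scan day 1 they were -0.080 and -0.10, and on scan day 2 they were -0.061 and -0.057. Ndufb9 differed by -0.071 ± 0.052 (SE). None of these passed the test, with adjusted p of at least 0.570 by limma with Benjamini-Hochberg adjustment.

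**Figure D2:**
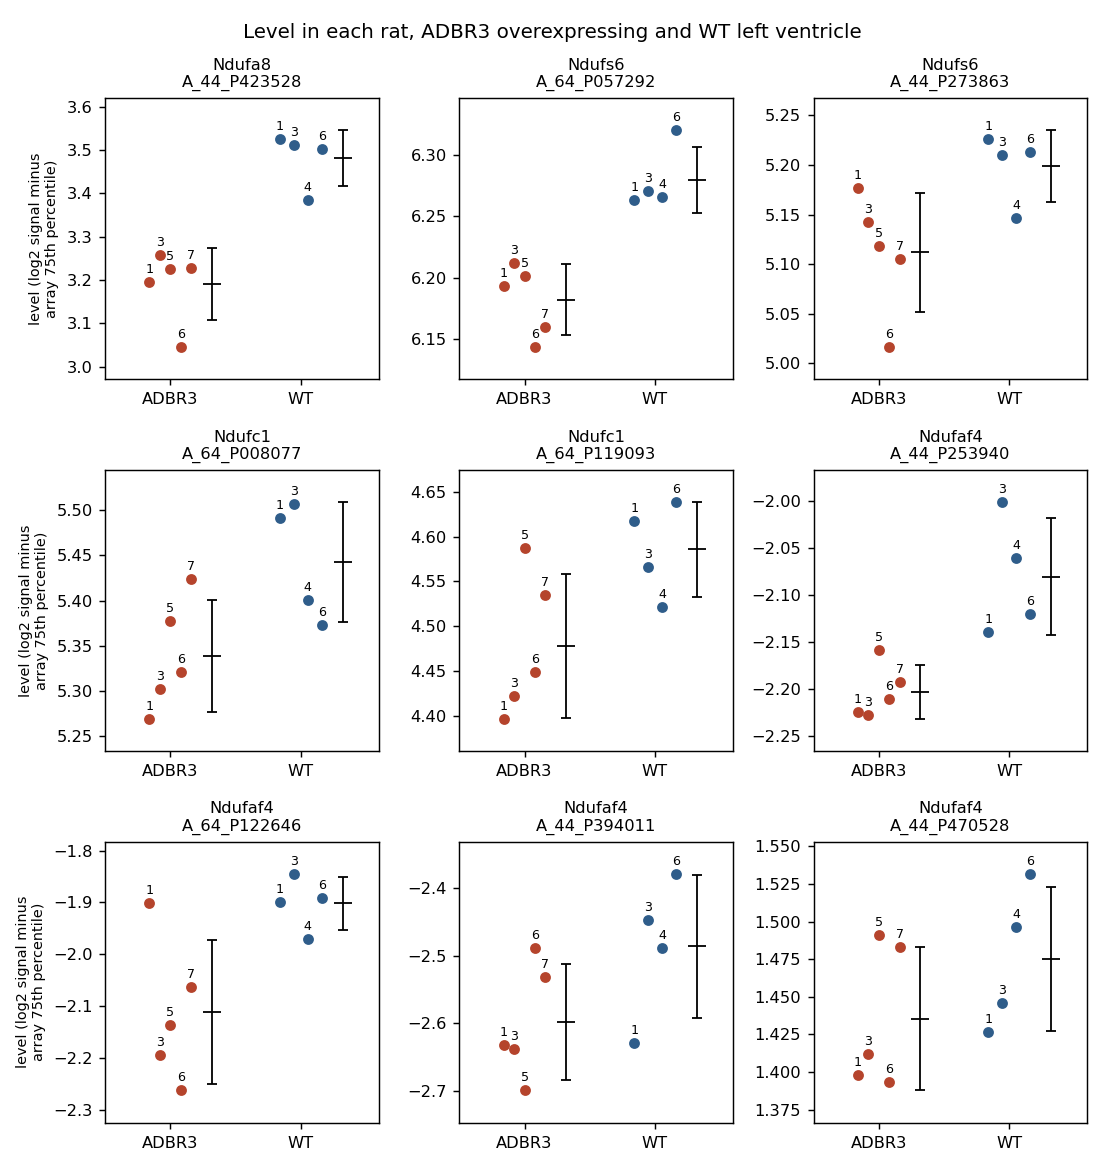
Level of each rat (log2 signal relative to the 75th percentile of the array) for the probes of Ndufa8, Ndufs6, Ndufc1 and Ndufaf4, with ADBR3 rats on the left and WT rats on the right of each panel. Points carry the heart number, and bars show the mean and SD over 5 ADBR3 and 4 WT rats. The groups are apart for Ndufa8, Ndufs6 A_64_P057292 and Ndufaf4 A_44_P253940 and overlap in the other 6 panels.

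Among the higher accessory subunits, Ndufa3 of the membrane arm had the smallest unadjusted p. Its level was 6.43, 6.51, 6.62, 6.45 and 6.55 in ADBR3 rats, against 6.46, 6.36, 6.35 and 6.39 in WT rats. ADBR3 3, 5 and 7 lay above all WT rats, and WT 1 lay above ADBR3 1 and 6. The difference of 0.12 ± 0.054 (SE) had an adjusted p of 0.545 by limma with Benjamini-Hochberg adjustment, and the exact permutation p was 0.0476. Ndufa7 of the N part differed by 0.15 ± 0.089 (SE), and leaving out WT 3, which at -2.12 lay above the other WT rats, raised the difference to 0.24. It was 0.028 under normexp with the 75th percentile, 0.077 under normexp with quantile normalization and 0.057 on the authors' deposited values. Ndufb3, Ndufb4 (probe A_64_P073625) and Ndufb6, all of the membrane arm, differed by 0.074, 0.038 and 0.034. The other Ndufb4 probe gave -0.013, and RefSeq lists 7 pseudogenes for Ndufb4. The 2 probes of Ndufs5, which lies on the intermembrane-space face, gave -0.0048 and 0.017.

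Ndufv3, an N-part subunit made in a short and a long form through an optional exon in human and mouse, was the member whose probes disagreed most. Probe A_42_P535085 is listed in the array files for transcript variant 1 alone, whereas A_64_P103707 and A_64_P141541 are listed for a further RefSeq transcript too. The variant 1 probe measured -0.78, -0.76, -0.34, -0.11 and -0.37 in ADBR3 rats, against -0.97, -0.64, -0.73 and -0.72 in WT rats. ADBR3 5, 6 and 7 were above all WT rats, while ADBR3 1 and 3 lay within the WT range. The replicate hybridization ADBR3 heart 4 was at -0.85, also within that range. Its difference was 0.29 ± 0.14 (SE), a 1.22-fold level, with an adjusted p of 0.565 by limma with Benjamini-Hochberg adjustment. Within slides 1, 3 and 4 the difference was 0.061, 0.36 and 0.26.

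For the probes that read both Ndufv3 transcripts the difference was -0.015 and 0.00030. Probe A_64_P103707 measured 6.27, 6.22, 6.61, 6.42 and 6.61 in ADBR3 rats, against 6.28, 6.47, 6.50 and 6.52 in WT rats. The groups overlapped across nearly the whole range. The level of the variant 1 probe minus that of A_64_P103707 was higher in ADBR3 rats by 0.31, with an exact two-sided permutation p of 0.0159 that became 0.286 after Benjamini-Hochberg adjustment over the 18 pairs of probes of 1 gene. Over the 9 rats A_64_P103707 and A_64_P141541 had a correlation of 0.974, given as a description.

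Ndufab1, the mitochondrial acyl carrier protein, serves fatty acid synthesis as well as complex I. Its probe A_64_P062201 differed by -0.025 and its dim probe A_64_P075391, near the end of the transcript, by -0.28 ± 0.18 (SE). The dim probe ranged from -3.81 to -2.88 in ADBR3 rats and from -3.43 to -2.92 in WT rats, so the WT range lay inside that of the ADBR3 rats, and without ADBR3 5 the difference was -0.17. Ndufa4, of complex IV, differed by 0.014 ± 0.047 (SE).

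Ndufaf4 was the assembly factor that stood furthest from 0 relative to its error. It works with Ndufaf3 on the early Q part, and its 4 probes all lay lower on average in ADBR3 rats, at -0.12, -0.11, -0.040 and -0.21. Under median centring 3 of the 4 kept that sign and A_44_P470528 turned to 0.020. Probe A_44_P253940 measured -2.22, -2.23, -2.16, -2.21 and -2.19 in ADBR3 rats, against -2.14, -2.00, -2.06 and -2.12 in WT rats. The groups did not overlap, and the gap between ADBR3 5 and WT 1 was narrow. The labelings of ADBR3 1 gave -2.33 and -2.12, and those of WT 1 gave -2.19 and -2.09. Single labelings of the groups thus overlapped, and the groups were apart only with the labelings of a rat averaged. For this probe the exact permutation p of 0.00794, the smallest that test can give, restates that separation and was not adjusted over probes. Its difference of -0.12 ± 0.047 (SE) had an adjusted p of 0.501 by limma with Benjamini-Hochberg adjustment. With median centring it was -0.062, under normexp with quantile normalization -0.065 and on the authors' deposited values -0.049. ADBR3 heart 4, the replicate hybridization, measured -2.06 and lay within the WT range.

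Probe A_64_P122646 of Ndufaf4 measured -1.90, -2.20, -2.14, -2.26 and -2.06 in ADBR3 rats, against -1.90, -1.85, -1.97 and -1.89 in WT rats. ADBR3 1 lay among the WT rats and the other ADBR3 rats below them. The labelings of ADBR3 1 gave -1.75 and -2.05, a wide gap for 1 RNA, and they lay on different slides and scan days. The difference was -0.21 ± 0.075 (SE), with an adjusted p of 0.469 by limma with Benjamini-Hochberg adjustment. With slide as a term it was -0.036 and with scan day as a term -0.12. Within slides 1, 3 and 4 it was 0.15, -0.093 and -0.15, while A_44_P253940 gave -0.20, -0.13 and -0.13. On slide 1 the ADBR3 group was read from the labeling at -1.75 alone. RefSeq lists 5 pseudogenes for Ndufaf4.

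Ndufaf1, which helps build the membrane arm, differed by 0.028, and Ndufaf3 by 0.021. Ndufaf5, which hydroxylates an arginine of Ndufs7, differed by -0.053, and the 2 probes of Ndufaf7, a methyltransferase of the mitochondrion, by 0.0048 and 0.0039. Among 12 tested assembly factors without an Nduf name, 6 were higher and 6 lower, and 0 passed the test by limma (0 at an unadjusted p under 0.05). Nubpl, which delivers iron-sulphur clusters to the complex, differed by 0.13.

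Ndufaf6, an early assembly factor related to phytoene synthases, showed the largest spread of all members. Its level was 2.44, 3.21, 3.18, 2.36 and 2.67 in ADBR3 rats, against 2.61, 2.54, 2.58 and 3.09 in WT rats. ADBR3 3, ADBR3 5 and WT 6 were high and the other 6 rats lay together lower, so that each group held rats of either kind. The SD within groups was 0.348, above that of 89.6% of all probes tested, whereas the median Nduf probe had 0.0739. Repeat labelings hardly differed, at 2.44 and 2.44 for the ADBR3 rat and 2.62 and 2.60 for the WT rat. The replicate hybridization ADBR3 heart 4, whose closest array was ADBR3 heart 3, measured 3.09, and WT heart 5, closest to WT heart 4, measured 2.48. The difference between groups was 0.065 ± 0.21 (SE), and leaving out WT 6 raised it to 0.19 while leaving out ADBR3 3 turned it to -0.044.

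**Figure D3:**
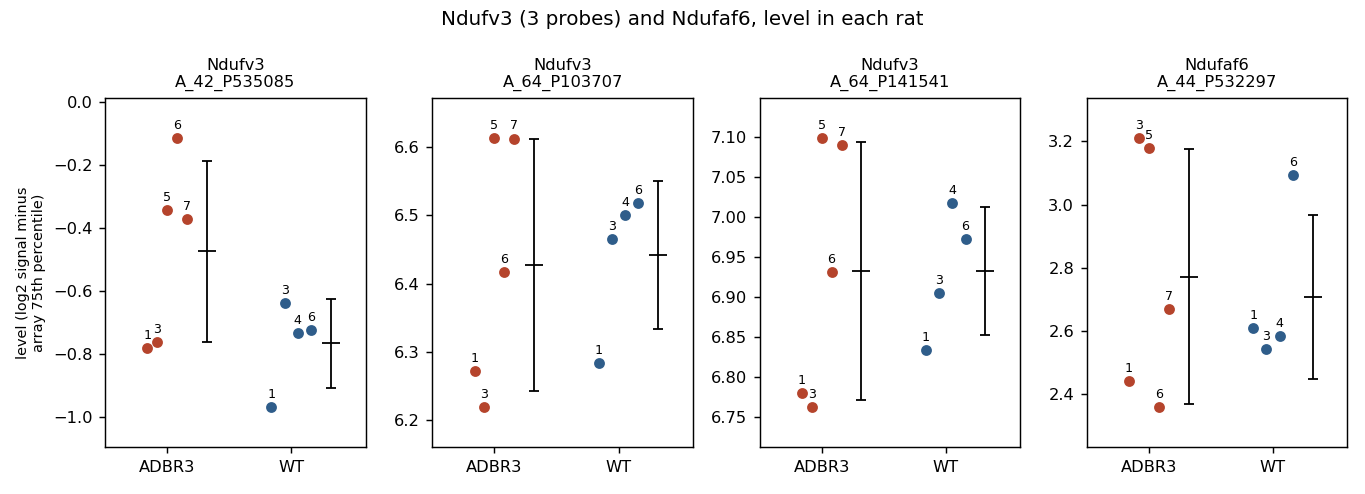
Level of each rat (log2 signal relative to the 75th percentile of the array) for the 3 Ndufv3 probes and the Ndufaf6 probe, with ADBR3 rats on the left and WT rats on the right of each panel, heart numbers at the points and bars for the mean and SD. ADBR3 5, 6 and 7 are above the WT rats for the variant 1 probe A_42_P535085 alone, and for Ndufaf6 ADBR3 3, ADBR3 5 and WT 6 lie above the other rats.

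The other 18 tested genes, with 21 probes, differed by -0.082 to 0.0098, and their smallest unadjusted p in the limma fit was 0.216. Of these 21 probes 2 were higher and 19 lower in ADBR3 rats, which median centring turned to 14 and 7. They were Ndufa1, Ndufa10, Ndufa10l1, Ndufa13, Ndufa2, Ndufa5, Ndufa6, Ndufa7l, Ndufa9, Ndufb10, Ndufb11, Ndufb2, Ndufb4l1, Ndufb5, Ndufb7, Ndufb8, Ndufc2 and Ndufs4.

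Single rats were high or low across many members at once. ADBR3 1 was the lowest of the 9 rats for 20 of the 60 probes and ADBR3 6 also for 20, while WT 6 was the highest for 16 and ADBR3 5 for 15. Relative to each probe's mean over the rats, the median deviation was -0.078, -0.022, 0.063, -0.072 and 0.038 in ADBR3 rats 1, 3, 5, 6 and 7. It was 0.027, -0.032, 0.0042 and 0.054 in WT rats 1, 3, 4 and 6. Over all probes tested no rat's median deviation was larger than 0.019 in size. ADBR3 6 was above the probe mean for 5 of 60 probes and ADBR3 1 for 8, while ADBR3 5 and 7 were above it for 45 each. Low and high rats thus both stood within the ADBR3 group.

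The other complexes of the respiratory chain are given for comparison. Over 40 probes of complexes II to V the median deviation was -0.060, -0.018, 0.018, -0.076 and 0.061 in ADBR3 rats and 0.042, -0.053, 0.035 and 0.060 in WT rats. ADBR3 1 and 6 were again the lowest. Of these 40 genes 10 were higher and 30 lower in ADBR3 rats, with a median of -0.035, which median centring turned to 26 and 14 with a median of 0.025, and 0 passed the test by limma (0 at an unadjusted p under 0.05). Atp5g2 and Atp5h of the ATP synthase differed by -0.12 and -0.11, Cox8b of complex IV by -0.11 and Cox5a of complex IV by 0.16. Among 11 tested genes of mitochondrial biogenesis and content, 6 were higher and 5 lower, and 0 passed. The coactivators Ppargc1b and Ppargc1a differed by -0.14 and -0.090, and Vdac1 and Polg by 0.094 and 0.040 in the other direction.

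Some markers of other tissue stood high in both rats that were lowest in complex I, and others did not. The mean level of 3 atrial markers was 4.43, 3.10, 3.47, 5.84 and 2.90 in ADBR3 rats 1, 3, 5, 6 and 7, against 3.47, 2.93, 3.49 and 4.41 in WT rats 1, 3, 4 and 6, highest in ADBR3 6 and next in ADBR3 1. The mean level of 6 fibroblast markers was 1.13, 0.64, 0.67, 1.12 and 0.67 in ADBR3 rats, against 0.53, 0.81, 0.71 and 0.51 in WT rats, and was again highest in ADBR3 1 and 6. WT 6, high in atrial markers, was not low in complex I. The mean level of 5 smooth muscle and pericyte markers was highest in ADBR3 6 at 0.66 and next in ADBR3 1 at 0.36. That of 10 cardiomyocyte markers was 7.80 in both rats. It ranged from 7.75 to 7.87 over ADBR3 rats and from 7.64 to 7.91 over WT rats. For 6 endothelial markers it was 0.67 in ADBR3 1 and 0.69 in ADBR3 6. The ranges were 0.47 to 0.69 over ADBR3 rats and 0.58 to 0.70 over WT rats. The mean level of 5 macrophage markers was -0.75 in ADBR3 1, the second lowest of the 9 rats, and -0.30 in ADBR3 6, the highest. That of 3 blood markers was 4.96 in ADBR3 1 and 5.01 in ADBR3 6, in a range of 4.96 to 5.36 over ADBR3 rats and 4.75 to 5.30 over WT rats. For 3 adipocyte markers it was 0.67 in ADBR3 1, within the range of the other rats, and 1.53 in ADBR3 6, the highest of the 9 rats. For 3 skeletal muscle markers it was 2.89 in ADBR3 1, also within that of the other rats, and 3.00 in ADBR3 6, again the highest. All 6 fibroblast markers and all 5 tested smooth muscle and pericyte markers were higher on average in ADBR3 rats, with medians of 0.13 and 0.064 and 0 past the test by limma (0 at an unadjusted p under 0.05). Both tested lymphocyte markers of 6 listed were lower on average in ADBR3 rats and dim, Cd3g by -0.68 and Gzma by -0.49, each at an unadjusted p under 0.05 and with adjusted p of 0.542 and 0.359 by limma with Benjamini-Hochberg adjustment. Their mean level was -3.58 in ADBR3 1 and -3.37 in ADBR3 6, within the range of the other ADBR3 rats. The part of these tissues in the Nduf values was not tested, and fewer cells of a type and less RNA per cell cannot be told apart in bulk tissue.

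**Figure D4:**
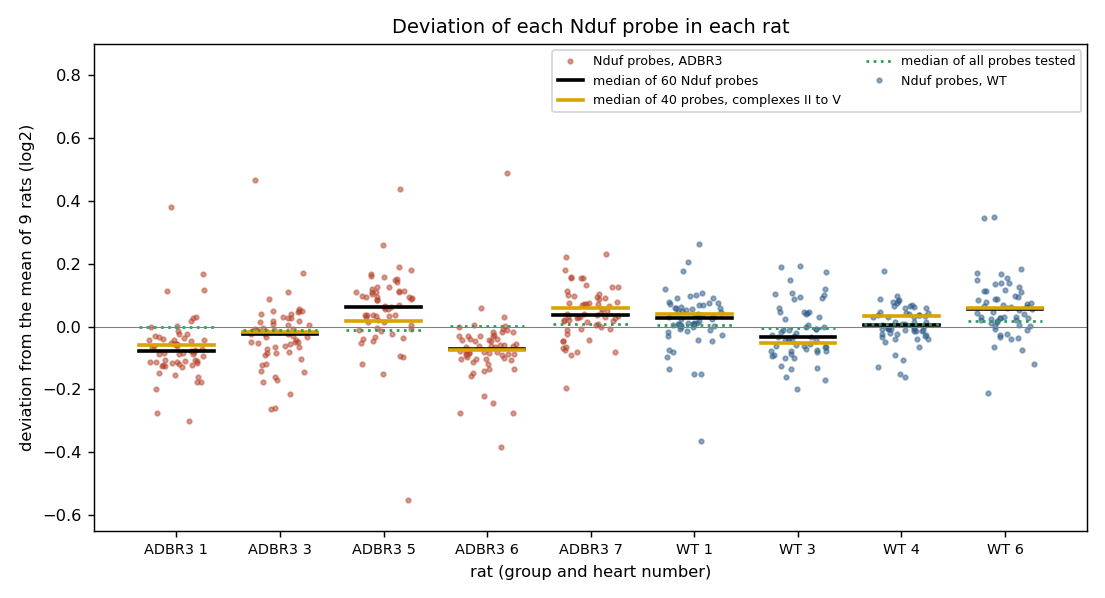
Deviation of each of the 60 Nduf probes from its mean over the 9 rats (log2 units), 1 column of points a rat, with ADBR3 rats on the left and WT rats on the right. Black, yellow and dotted green lines are medians of the Nduf probes, of 40 probes of complexes II to V and of all probes tested. ADBR3 1 and 6 lie lowest at -0.078 and -0.072, and the medians of all probes stay near 0, where the scaling of the arrays tends to hold them.

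The slides and scan days recorded in the file headers were unevenly spread over the groups. Over the 60 probes the median difference was -0.11, 0.044 and -0.020 within slides 1, 3 and 4, and -0.043 and -0.034 within the 2 scan days. Slide 1 held ADBR3 1 as its only ADBR3 rat. The sign of the median thus did not hold within every slide.

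Promoter sequence was described for the members found in the RefSeq promoter table of GRCr8, 41 of them, with 250 bases before the start of the gene and 50 after it. Letters of known sites of nuclear respiratory genes were searched on both strands by exact match. The NRF1 core GCGCATGCG was present in 3 Nduf promoters (7.32%), those of Ndufa11, Ndufaf4 and Ndufaf5, against 16.7% of 36 promoters of complexes II to V and 1.52% of all 33469 promoters. The YY1 core AAGATGGCG was present in 7 (17.1%), in Ndufa2, Ndufa6, Ndufa9, Ndufb8, Ndufs4, Ndufs6 and Ndufs7, against 8.33% for complexes II to V and 1.73% of all. The ETS core CCGGAAG was present in 8 (19.5%), in 36.1% for complexes II to V and in 8.75% of all. The ERR site TCAAGGTCA was in 0 of 41, in 5.56% for complexes II to V and in 0.433% of all. Its shorter form AAGGTCA, which the longer site contains, was in 4 (9.76%), in 19.4% for complexes II to V and in 4.61% of all. The shorter NRF1 form GCGCATG, contained in the core, was in 6 (14.6%), in 22.2% for complexes II to V and in 3.77% of all. Of the 6 motifs, the YY1 core alone had a higher share in Nduf promoters than for complexes II to V. Nduf promoters had a median of 20 CpG dinucleotides and a median GC content of 57.3%, against 19 and 56.5% for complexes II to V and 7 and 51.7% over all promoters. These are matches of letters and were not tested.

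The promoters of Ndufaf4, the assembly factor with all probes lower on average, and of Ndufs7, a core subunit with the YY1 letters at its start, show both kinds of match. Capitals mark the NRF1 core in the first, on overlapping matches of both strands, the first of which begins at base -158 from the gene start, and the YY1 core in the second, which begins at base 5 of the transcript. The stretch shown for Ndufaf4 is the 250 bases before the start, chr5:43401545-43401794 on the plus strand of GRCr8. That of Ndufs7 has 25 bases after the start too, chr7:10110474-10110748 on the minus strand of GRCr8. Both are from RefSeq.
Ndufaf4: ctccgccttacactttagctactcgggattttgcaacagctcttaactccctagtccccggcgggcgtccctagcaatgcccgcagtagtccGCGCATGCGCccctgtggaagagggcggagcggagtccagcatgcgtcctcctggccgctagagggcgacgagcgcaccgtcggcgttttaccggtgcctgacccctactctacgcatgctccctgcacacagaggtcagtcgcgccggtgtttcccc
Ndufs7: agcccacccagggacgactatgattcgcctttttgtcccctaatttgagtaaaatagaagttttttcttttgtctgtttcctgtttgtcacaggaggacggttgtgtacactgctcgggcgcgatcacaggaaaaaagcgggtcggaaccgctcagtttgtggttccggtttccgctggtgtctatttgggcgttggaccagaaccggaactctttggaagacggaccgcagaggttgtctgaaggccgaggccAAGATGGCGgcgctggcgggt

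**Figure D5:**
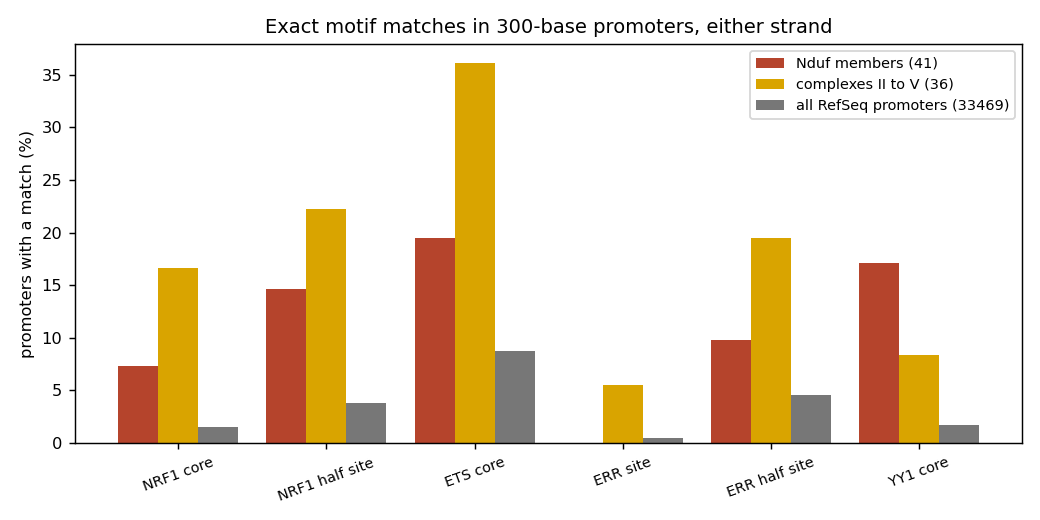
Share of promoters (percent, vertical axis) with an exact match to each motif on either strand, for 41 Nduf members, 36 genes of complexes II to V and all 33469 RefSeq promoters of GRCr8. The YY1 core is in 17.1% of Nduf promoters, against 8.33% for complexes II to V and 1.73% of all, while the ETS core is in 19.5% of Nduf promoters and 36.1% for complexes II to V.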

How the data were processed

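Per the file headers, the deposited scanner files hold spot intensity from Agilent Feature Extraction 10.7.1.1, background-subtracted and spatially detrended, on a design annotated to rn4. The authors' deposited series table holds natural log values, as a match to the scanner signals showed, with no stated scaling of the arrays, and served as an alternative. Log2 of the deposited processed signal minus the array's 75th percentile was computed, and spots of a probe were averaged. Probes well above background in at least 4 of 9 rats were tested (17587). Groups were compared with limma 3.58.1 (R 4.3.3, tables read with version 1.17.8 of data.table), adjusted by Benjamini-Hochberg at 0.05, after a check on simulated data. Python 3.11.15 with pandas 2.3.3, numpy 2.4.6 and matplotlib 3.10.9 did the rest. The number of arrays limits the precision.

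Members and lists were chosen with earlier results of these data known. The promoter motifs and their lengths, the 1.2-fold limit, the comparison of probe pairs and the deviations by rat were chosen after seeing the values. Genes named are the 7 core subunits, all assembly factors, Ndufab1, Ndufa4, the 8 higher and the 8 lower genes with the smallest unadjusted p, genes whose probes differed in sign or by over 0.2, and up to 4 genes of other lists; 1 gene is counted in the totals but not reported here. Of the 61 probes, 50 matched the RefSeq table (GRCr8) by accession. The others were those of Ndufa3, Ndufa7, Ndufa7l, Ndufa8, Ndufa13, Ndufaf2, Ndufb4l1, Ndufc1 and Ndufs6.

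Alternatives were median centring, quantile normalization, normexp background correction (offset 50), the authors' values, 2 other filters on dim probes, a trended and robust variance, the replicate hybridizations averaged in, slide or scan day as a term, 1 probe a gene, rats 1, 3 and 6 with and without a replicate block, and each rat left out.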

Additional observations from a re-analysis of the deposited data

Results flagged for a closer look

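In 8 of 120 groups of rats, 2 of ADBR3 and 6 of WT, the highest or lowest rat lay apart from the others of its group by more than Dixon's critical value at the 95% level. Chance flags about 1 in 20 groups. Among ADBR3 rats, ADBR3 1 was low for Ndufb10 A_64_P029681, at 5.92 against 6.20 to 6.26. Its labelings gave 6.13 and 5.71, a wide gap for 1 RNA, and they lay on different slides and scan days. ADBR3 5 was high for Ndufab1 A_64_P062201, at 5.83 against 5.64 to 5.68. Among WT rats, WT 6 was high for Ndufaf6, at 3.09 against 2.54 to 2.61, high for Ndufs6 A_64_P057292, at 6.32 against 6.26 to 6.27, and low for Ndufb7, at 5.97 against 6.02 to 6.03. WT 4 was low for Ndufa8, at 3.39 against 3.50 to 3.52. WT 1 was high for Ndufs3, at 5.46 against 5.41 to 5.41, and WT 3 was high for Ndufa7, at -2.12 against -2.53 to -2.47.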

How the results depend on the processing

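Over all 23 alternatives 0 Nduf probes passed the test, and for the named Nduf probes no call was gained. The count over the whole array was 1, and became 0 under median centring and with slide as a term, 2 under normexp with quantile normalization and with scan day as a term, 6 with a trended and robust variance, and 0 to 14 with each rat left out (14 without ADBR3 3). Of the rats numbered 1, 3 and 6 in both groups, same-numbered rats had correlations of deviations of 0.115, 0.0352 and 0.116, so the numbers were not taken as pairs. On these rats 0 probes of the array were called with the heart number as a replicate block and 0 without it. The median over Nduf probes was then -0.0790 either way, with 6 higher and 54 lower. It was 0.0313 under median centring and ran from -0.0566 to -0.0110 with each rat left out. The sign changed for 23 named probes, all uncalled, and the cause was not tested.

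With median centring the differences that changed sign were 0.0072 for Ndufaf5, 0.012 for Ndufs8, 0.020 for Ndufaf4 A_44_P470528, 0.035 for Ndufab1 A_64_P062201, 0.047 for Ndufb4 A_64_P078769, 0.045 for Ndufv3 A_64_P103707, 0.041 for Ndufb7, 0.055 for Ndufs5 A_64_P139212, 0.015 for Ndufs7 and 0.057 for Ndufs1. Quantile normalization gave -0.0027 for Ndufa4, 0.020 for Ndufs1 and -0.019 for Ndufv3 A_64_P141541. Normexp with the 75th percentile gave -0.013 and -0.0081 for Ndufaf7 A_44_P340316 and A_64_P028551, -0.0027 for Ndufb6, -0.017 for Ndufb4 A_64_P073625, 0.020 and -0.027 for Ndufv3 A_64_P103707 and A_64_P141541, 0.034 for Ndufs5 A_64_P139212 and 0.014 for Ndufs1. Normexp with quantile normalization gave -0.044 for Ndufb4 A_64_P073625, 0.00086 and -0.049 for Ndufv3 A_64_P103707 and A_64_P141541, 0.024 for Ndufs5 A_64_P139212 and 0.022 for Ndufs1. The authors' deposited values gave -0.0083 for Ndufb6, -0.010 for Ndufb4 A_64_P073625, -0.00090 for Ndufaf3, 0.019 for Ndufs5 A_64_P139212, 0.0078 for Ndufs1 and -0.034 for Ndufv3 A_64_P141541. Averaging the replicate hybridizations in gave 0.0068 for Ndufs5 A_64_P139212 and 0.00092 for Ndufs1. Slide as a term gave -0.0069 for Ndufv2, -0.021 for Ndufa4, -0.011 for Ndufaf7 A_64_P028551, 0.012 for Ndufb10 A_64_P029681, -0.032 for Ndufb4 A_64_P073625, -0.028 for Ndufv1 and -0.026 for Ndufv3 A_64_P141541. Scan day as a term gave -0.0022 for Ndufaf7 A_44_P340316, 0.011 for Ndufab1 A_64_P062201, -0.0027 for Ndufaf3 and 0.0017 for Ndufs1. Rats 1, 3 and 6, with or without the replicate block, gave -0.036 for Ndufv2, -0.028 for Ndufaf1, -0.033 for Ndufa4, -0.042 and -0.095 for Ndufaf7 A_44_P340316 and A_64_P028551, -0.078 for Ndufaf6, -0.015 for Ndufb6, -0.028 for Ndufb4 A_64_P073625, -0.047 for Ndufaf3, -0.052 for Ndufs5 A_64_P139215, -0.056 for Ndufv1 and -0.079 for Ndufv3 A_64_P141541.

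With each rat left out, the differences that changed sign ran from -0.039 to 0.0063 for Ndufb4 A_64_P078769, -0.068 to 0.037 and -0.041 to 0.043 for Ndufv3 A_64_P103707 and A_64_P141541, -0.028 to 0.021 and -0.020 to 0.049 for Ndufs5 A_64_P139212 and A_64_P139215, -0.044 to 0.19 for Ndufaf6, -0.023 to 0.016 for Ndufs1, -0.0026 to 0.053 for Ndufv2, -0.0057 to 0.069 for Ndufaf1, -0.039 to 0.035 and -0.043 to 0.039 for Ndufaf7 A_44_P340316 and A_64_P028551, -0.032 to 0.035 for Ndufv1, -0.086 to 0.016 for Ndufs8, -0.0067 to 0.026 for Ndufa4, -0.0098 to 0.063 for Ndufaf3 and -0.079 to 0.0054 for Ndufs7.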
